A study of Mus musculus with 6 samples.

Results

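The 10 genes described here encode the core proteins of the complexes that give an epithelial cell its top and bottom. They are Crb3 of the Crumbs complex, Pard3, Pard6a, Pard6b, Prkci and Prkcz of the Par complex, and Scrib, Dlg1, Llgl1 and Llgl2 of the Scribble complex. They were taken by gene symbol from a table of 21240 genes, all 10 symbols were found, and all 10 passed the filter on low counts. The cells were NMuMG, an established epithelial line from the normal mouse mammary gland that is widely used to follow the epithelial-mesenchymal transition (EMT). All cells were first kept for 6 h in medium without serum and insulin. They then received TGFβ1 at 5 ng/ml for 2 h, TGFβ1 at 5 ng/ml for 12 h, or vehicle (HCl with bovine serum albumin) for 2 h. Each of these 3 groups has 2 biological replicates, 6 libraries in all. There is no vehicle group at 12 h. In the comparison of 12 h with vehicle, TGFβ and a longer time without serum and insulin therefore cannot be told apart.

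In a polarized epithelial cell, the Crumbs and Par complexes sit at the apical side and at the tight junctions, and the Scribble complex sits along the lateral membrane below them. Atypical protein kinase C, the kinase of the Par complex, phosphorylates Lgl proteins and keeps them off the apical side, while Lgl proteins hold back the kinase at the lateral side, so that each complex limits the territory of the other. Loss of apicobasal polarity is a known early step of EMT, and Crumbs and Lgl genes are known targets of the transcriptional repressors that drive it.

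RNA was measured by strand-specific sequencing of total RNA, and the values deposited are read counts per gene. The libraries held 14705886 to 23786993 counts. A level is given below in CPM, counts per megaread of the library after its total was scaled by a TMM factor (0.961 to 1.07). A change is given as log2FC, the log2 fold change from edgeR's quasi-likelihood fit of the 3 groups, with its standard error (SE, n = 2 libraries per group). The fit covered the 11080 genes that reached 2 CPM in at least 2 libraries. A gene was called when its p-value, adjusted by the Benjamini-Hochberg method over all genes tested, was under 0.05. The labelled cell type was checked with 8 epithelial markers. Cdh1, Krt8, Krt18, Krt19 and Ocln were expressed, whereas Epcam, Cldn7 and Esrp1 were at or near 0 CPM in all libraries. The summed level of these markers was 5029 to 5869 CPM in vehicle, 6521 to 6528 at 2 h and 10381 to 10425 at 12 h, with most of the difference in Krt8 and Krt18, while Krt19 was at 1666 to 1847 CPM in vehicle and 420.4 to 489.8 at 12 h. Summed markers of immune cells stayed between 5.10 and 7.33 CPM, most of it Cd68, with Cd3e at 0. Those of basal cells were at 2.55 to 5.18 CPM in vehicle, 8.76 to 11.8 at 2 h and 5.71 to 9.04 at 12 h, most of it Krt14. Those of endothelial cells were at 0.177 to 0.255 CPM in vehicle and 1.74 to 1.95 CPM at 12 h, where most of it was Cdh5, and those of adipocytes reached at most 0.0505 CPM. Whether the change in these markers has a part in the results below was not tested. In RNA from a whole culture, fewer cells that express a gene and less RNA of it per cell cannot be told apart.

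Promoter sequences of the genes that moved most at 2 h, Crb3, Pard6b and Llgl1, are shown first, because Crb3 stands out in its content of the E-box, the sequence to which EMT repressors of the Snail and Zeb families are known to bind. Each window is from RefSeq (GRCm38.p6), runs from 250 bases before the transcription start site to 50 bases after it, is written 5′ to 3′ on the gene's strand, and was located by exact match on the build of the files (mm9). Both strands were searched for the E-box, which reads CAGGTG on one strand and CACCTG on the other, and matches are in capitals. The Crb3 window is chr17:57201374-57201673 (plus strand), inside the annotated gene, whose annotated start lies further upstream. The Pard6b window is chr2:167906254-167906553 (plus strand) and the Llgl1 window is chr11:60512952-60513251 (plus strand).
Crb3: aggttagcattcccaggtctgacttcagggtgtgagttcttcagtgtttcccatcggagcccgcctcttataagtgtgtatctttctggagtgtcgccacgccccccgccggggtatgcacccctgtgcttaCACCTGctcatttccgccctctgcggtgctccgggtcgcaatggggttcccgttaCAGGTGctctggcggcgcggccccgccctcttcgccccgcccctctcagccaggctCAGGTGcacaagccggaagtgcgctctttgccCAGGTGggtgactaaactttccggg
Pard6b: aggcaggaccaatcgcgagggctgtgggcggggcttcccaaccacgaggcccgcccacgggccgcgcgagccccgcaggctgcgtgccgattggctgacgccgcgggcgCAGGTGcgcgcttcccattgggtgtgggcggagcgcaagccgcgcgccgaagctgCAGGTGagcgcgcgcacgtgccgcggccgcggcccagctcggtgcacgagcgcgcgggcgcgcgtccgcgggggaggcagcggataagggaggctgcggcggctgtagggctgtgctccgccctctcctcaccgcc
Llgl1: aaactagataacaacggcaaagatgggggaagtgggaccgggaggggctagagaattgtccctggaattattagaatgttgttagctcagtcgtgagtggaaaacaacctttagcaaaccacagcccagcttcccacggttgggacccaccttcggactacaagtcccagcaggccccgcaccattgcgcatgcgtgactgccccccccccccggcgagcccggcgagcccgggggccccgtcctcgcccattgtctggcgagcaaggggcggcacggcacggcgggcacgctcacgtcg

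The Crb3 window held 4 E-boxes, at positions -118, -63, -7 and 25 from the start site. A further Crb3 window, which shares 270 bases with it, held the same number. Pard6b held 2, at -141 and -86, and Llgl1 held none. Of all 32851 windows of this length, 20.2% held at least 1 E-box and 18, or 0.0548%, held 4 or more, both Crb3 windows included. Windows were found for 8 of the 10 genes, and none for Llgl2 and Scrib. Of their 16 windows 8 held an E-box, among them both Crb3 windows, which are largely the same sequence. Per gene, 6 of the 8 had an E-box in at least 1 window, against 22.6% of the 27025 genes with windows and 36.5% of those with 2 or more windows, as 5 of the 8 have. Pard3 had 3 in 1 of its windows, Prkcz 2 in 1 window and 1 in another, Pard6a and Dlg1 had 1, and Prkci had none. The AP-1 motif TGANTCA, searched on both strands, was in 7.81% of all windows and in none of these 16, so the motifs shared no bases. These matches are letters in a window and are not binding sites, and nothing was measured here at these promoters.

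The first question is which polarity genes had changed after 2 h of TGFβ. Crb3, Pard6b and Llgl2 were lower and Llgl1 was higher. Of the 10 genes, 1 was called higher and 3 lower, against a background over all genes tested of 9.91% called higher, 5.25% called lower and 15.2% called in either direction. When each library was left out in turn, 0 to 2 of the 10 genes were called higher and 1 to 2 lower, and over all genes 493 to 1245 (1098 with all libraries) were called higher and 125 to 951 (582 with all libraries) lower. Crb3 alone also passed an absolute log2FC of 1, where the background is 2.01% lower, 4.23% higher and 6.25% in either direction. The median log2FC was -0.14 over the 10 genes and -0.01 over all genes tested, and the median absolute log2FC was 0.35 and 0.24.

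The second question is which had changed after 12 h. Crb3, Llgl2, Pard6a and Prkcz were lower and Llgl1 was higher, so 1 gene was called higher and 4 lower. In this comparison 21.8% of all genes were called higher, 21.5% lower and 43.3% in either direction, so a share of 5 in 10 is near the background. When each library was left out in turn, 1 to 2 of the 10 genes were called higher and 2 to 4 lower, and 2822 to 5410 of all genes were called (4799 with all libraries). The lowest counts came without a 12 h library, with 2898 of all genes and 2 of the 10 lower without replicate 1, and 2822 and 3 without replicate 2. Crb3 and Llgl2 fell and Llgl1 rose by more than 1 on the log2 scale, which 11.6% of all genes did downwards, 8.03% upwards and 19.6% in either direction. The median log2FC was 0.02 over the 10 genes and 0.02 over all genes, and the median absolute log2FC was 0.43 and 0.39. Both comparisons use the same vehicle libraries, so their values are not independent.

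**Figure D1:**
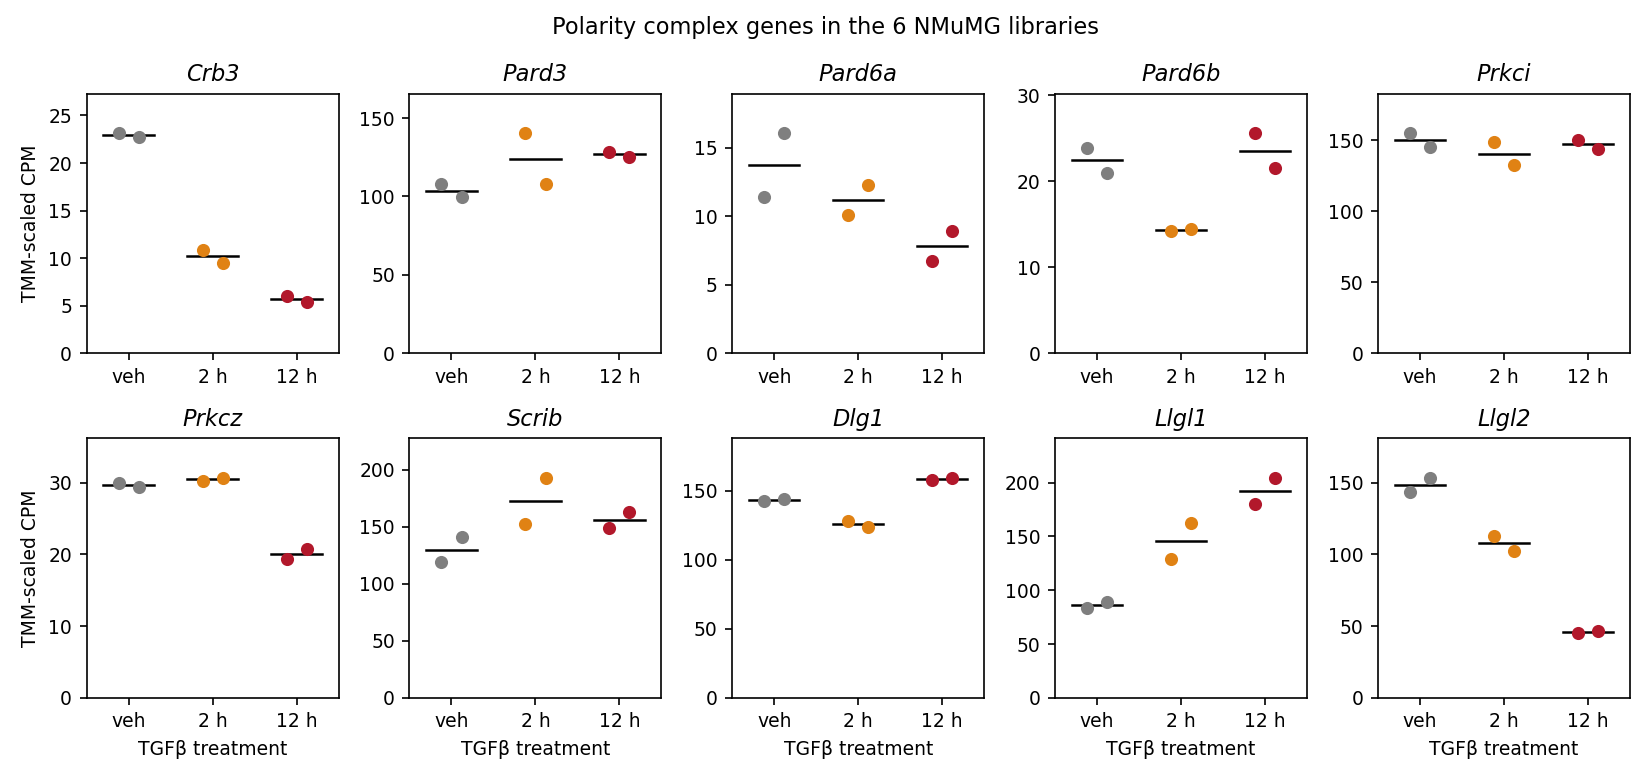
Level of each polarity complex gene in TMM-scaled CPM (vertical axes, each starting at 0) in vehicle, 2 h and 12 h of TGFβ. Points are the 6 libraries and horizontal lines are the means of 2. Crb3 fell from 23.1 and 22.8 CPM to 6.02 and 5.34 CPM, Llgl2 fell from 143 and 153 to 45.2 and 46.4, and Llgl1 rose from 83.2 and 89.3 to 179.8 and 204.

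Crb3 (chr17:57198528-57205341, plus strand, mm9) encodes the Crumbs protein of most epithelia, a small apical transmembrane protein that recruits the Pals1 and Patj scaffolds. Its level was 23.1 and 22.8 CPM in vehicle, 10.8 and 9.54 CPM at 2 h and 6.02 and 5.34 CPM at 12 h. The 3 groups did not overlap, and both libraries of each later group lay below those of the one before. At 2 h Crb3 was 2.25-fold lower than in vehicle (log2FC -1.17, SE 0.156, adjusted p = 0.00459), and at 12 h it was 4.03-fold lower (log2FC -2.01, SE 0.162, adjusted p = 0.000202). It also fell between 2 h and 12 h (log2FC -0.84, SE 0.161, adjusted p = 0.00863), a call that was lost without replicate 2 of the 12 h group (adjusted p = 0.0700). The counts behind these values were 393 and 357 in vehicle and 138 and 104 at 12 h. Both changes from vehicle were called under every alternative setting and without any single library, with a log2FC of -1.28 to -1.08 at 2 h and -2.11 to -1.94 at 12 h when each library was left out in turn.

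Pard3 (chr8:129587793-130136186, plus strand) encodes Par3, the scaffold that places the Par complex at the tight junction. It was at 108 and 99.5 CPM in vehicle, 140.4 and 108 at 2 h and 128.5 and 125 at 12 h. The 12 h libraries lay above both vehicle libraries, as did those at 2 h, although 1 of the latter by less than 1 CPM. Neither difference was called (log2FC 0.26, SE 0.142, adjusted p = 0.275 at 2 h, and log2FC 0.29, SE 0.141, adjusted p = 0.141 at 12 h). At 2 h the log2FC was 0.041 to 0.44 when each library was left out in turn. The change at 12 h was called with the replicate number as a block, a term for what libraries of the same number share (log2FC 0.29, adjusted p = 0.0415), and without replicate 2 of the 2 h group (adjusted p = 0.0428).

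Pard6a (chr8:108225054-108227393, plus strand) and Pard6b (chr2:167906504-167926703, plus strand) encode Par6 adaptors, which bind Cdc42 and hand its signal to atypical protein kinase C. Pard6a was at 11.4 and 16.1 CPM in vehicle, 10.1 and 12.3 at 2 h and 6.76 and 8.94 at 12 h. The vehicle libraries differed most among themselves, the 2 h libraries overlapped with them, and both 12 h libraries were below all others. It was not called at 2 h (log2FC -0.29, 95% interval -0.87 to 0.28, adjusted p = 0.465) and was 1.75-fold lower at 12 h (log2FC -0.81, SE 0.243, adjusted p = 0.0355). The call at 12 h was lost without replicate 2 of vehicle (adjusted p = 0.194), without replicate 1 of 12 h (0.185) and without replicate 2 of 12 h (0.0655).

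Pard6b was at 23.9 and 21.0 CPM in vehicle, 14.2 and 14.4 at 2 h and 25.6 and 21.5 at 12 h. The 2 h libraries were below all others, and the 12 h libraries overlapped with vehicle. It was 1.57-fold lower at 2 h (log2FC -0.65, SE 0.151, adjusted p = 0.0338) and was then 1.64-fold higher at 12 h than at 2 h (log2FC 0.72, SE 0.150, adjusted p = 0.0118). At 12 h it was not called against vehicle (log2FC 0.07, 95% interval -0.28 to 0.43, adjusted p = 0.732). The fall at 2 h was not called when any 1 of the 6 libraries was left out (adjusted p = 0.0573 to 0.190) or when only the libraries of vehicle and 2 h were fitted (0.0716). The later rise was not called without replicate 1 of 12 h (adjusted p = 0.0957).

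Prkci (chr3:30894669-30951663, plus strand) and Prkcz (chr4:154634238-154735470, minus strand) encode the atypical protein kinases C iota and zeta. Prkci was at 155 and 145 CPM in vehicle, 149 and 132 at 2 h and 151 and 144 at 12 h, and all 3 groups overlapped. Its log2FC was -0.09 at 2 h (95% interval -0.35 to 0.16, adjusted p = 0.603) and -0.03 at 12 h (95% interval -0.28 to 0.23, adjusted p = 0.861), so a rise of more than 0.23 at either time lies outside the interval. Prkcz was at 29.9 and 29.4 CPM in vehicle, 30.2 and 30.7 at 2 h and 19.3 and 20.7 at 12 h. The 12 h libraries stood clearly below the other 4. Prkcz was not called at 2 h (log2FC 0.04, SE 0.114, adjusted p = 0.854), was 1.48-fold lower at 12 h than in vehicle (log2FC -0.57, SE 0.116, adjusted p = 0.00796) and was lower at 12 h than at 2 h (log2FC -0.61, SE 0.115, adjusted p = 0.00841). Both calls were lost without replicate 1 of 12 h (adjusted p = 0.0603 against vehicle and 0.0719 against 2 h).

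Scrib (chr15:75877588-75900214, minus strand) encodes the large scaffold after which the Scribble complex is named. It was at 119 and 141 CPM in vehicle, 152 and 193 at 2 h and 149 and 163 at 12 h. All 4 treated libraries lay above both vehicle libraries, but the replicates of vehicle and of 2 h lay far apart. The log2FC was 0.41 at 2 h (SE 0.151, adjusted p = 0.126) and 0.26 at 12 h (SE 0.151, adjusted p = 0.204), and neither was called. With the replicate number as a block both were called, with adjusted p = 0.0122 at 2 h and 0.0386 at 12 h, and the change at 2 h was also called without replicate 1 of the 2 h group (adjusted p = 0.0338).

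Dlg1 (chr16:31663529-31873436, plus strand) encodes a membrane-associated guanylate kinase that binds Scribble and the adenomatous polyposis coli protein. It was at 142 and 144 CPM in vehicle, 128 and 124 at 2 h and 158 and 159 at 12 h. Replicates differed by a few CPM only and the groups did not overlap, with 2 h the lowest and 12 h the highest. Against vehicle it was not called at 2 h (log2FC -0.18, SE 0.0907, adjusted p = 0.235) or at 12 h (log2FC 0.15, SE 0.0905, adjusted p = 0.234). Between 2 h and 12 h it rose (log2FC 0.33, SE 0.0906, adjusted p = 0.0313). This call held without replicate 1 of 2 h (adjusted p = 0.0484), but was lost without any other single library (up to 0.154) and with only the libraries of 2 h and 12 h in the fit (0.0709).

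Llgl1 (chr11:60513225-60527688, plus strand) and Llgl2 (chr11:115685363-115717094, plus strand) encode the mammalian Lgl proteins, the partners that oppose atypical protein kinase C on the lateral membrane. They moved in opposite directions. Llgl1 was at 83.2 and 89.3 CPM in vehicle, 129 and 162 at 2 h and 179.8 and 204 at 12 h. The groups did not overlap, and each later group was higher. Llgl1 was 1.69-fold higher at 2 h (log2FC 0.76, SE 0.142, adjusted p = 0.0164) and 2.23-fold higher at 12 h (log2FC 1.16, SE 0.143, adjusted p = 0.00103). The call at 2 h was lost without replicate 1 of vehicle (adjusted p = 0.110) and without replicate 2 of vehicle (0.0740), while that at 12 h held without any single library (log2FC 1.05 to 1.23). The difference between 12 h and 2 h was not called (log2FC 0.40, SE 0.140, adjusted p = 0.0684), but it was called with the replicate block (adjusted p = 0.00700), with DESeq2 (0.0389) and without replicate 2 of 2 h (0.0166). Exons of Llgl1 overlap those of Flii on the other strand, and counting used the strand.

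Llgl2 was at 143 and 153 CPM in vehicle, 113 and 102 at 2 h and 45.2 and 46.4 at 12 h. The groups did not overlap, and each later group was lower. Llgl2 was 1.38-fold lower at 2 h (log2FC -0.46, SE 0.101, adjusted p = 0.0276), 3.24-fold lower at 12 h (log2FC -1.70, SE 0.105, adjusted p = 8.4e-05) and 2.35-fold lower at 12 h than at 2 h (log2FC -1.23, SE 0.104, adjusted p = 0.000515). The fall at 2 h was still called without replicate 1 of 2 h (adjusted p = 0.0214), but was lost without any other single library (up to 0.150). It was also lost with vehicle and 2 h alone in the fit (0.0832). The changes at 12 h held in every alternative, with a log2FC of -1.75 to -1.65 against vehicle when each library was left out.

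**Figure D2:**
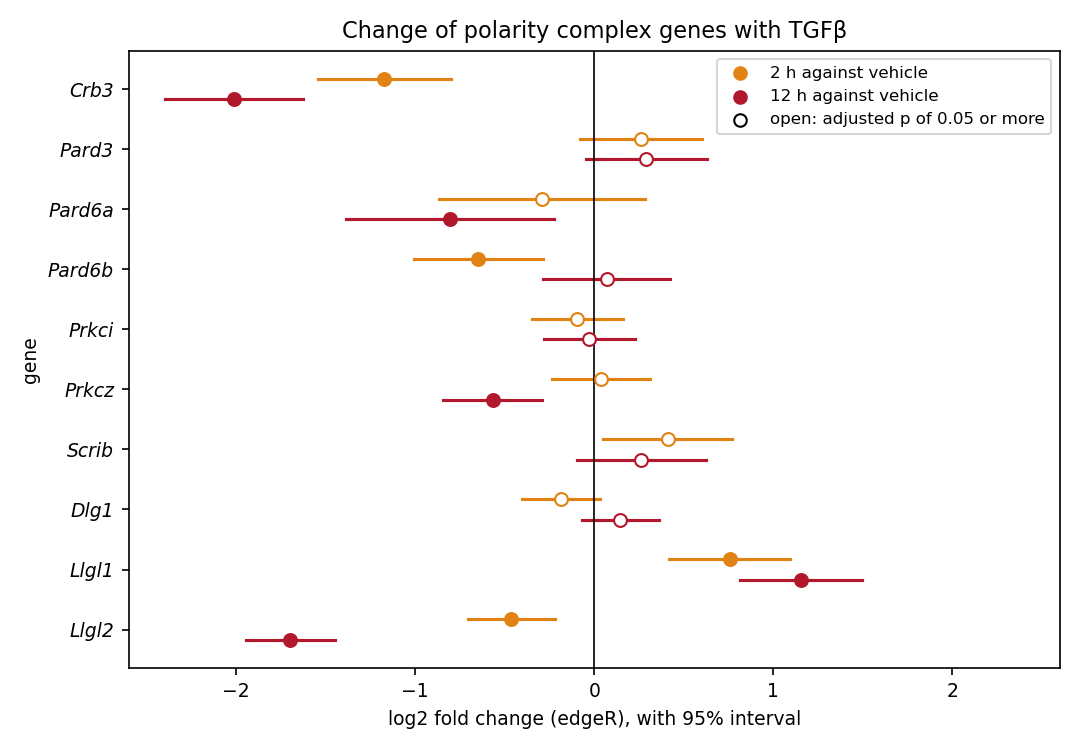
Change of each polarity complex gene against vehicle at 2 h and 12 h as log2FC from edgeR (horizontal axis), with its 95% interval over 2 libraries per group. Filled points are called and open points are not. Crb3 (-1.17 and -2.01) and Llgl2 (-0.46 and -1.70) lie left of 0 and Llgl1 (0.76 and 1.16) right of 0 at both times, and Prkci (-0.09 and -0.03) lies at 0.

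Between 2 h and 12 h, Pard6b and Dlg1 were called higher and Crb3, Prkcz and Llgl2 lower. Over all genes, 15.2% were called higher, 18.9% lower and 34.1% in either direction. Llgl2 alone changed by more than 1 on the log2 scale, where the background is 4.5% higher, 9.87% lower and 14.4% in either direction. The median log2FC was -0.06 over the 10 genes and 0.01 over all genes. With the replicate block Pard6a was also called lower at 12 h than at 2 h (log2FC -0.52, adjusted p = 0.0218), which it was not without the block (adjusted p = 0.149).

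Ratios of paralogs within a library do not depend on how libraries are scaled. The ratio of Llgl1 to Llgl2 counts was 0.580 and 0.582 in vehicle, 1.14 and 1.58 at 2 h and 3.98 and 4.41 at 12 h. Llgl2 thus had more counts than Llgl1 in both vehicle libraries and fewer in all 4 treated libraries. On the log2 scale, with 0.5 counts added to each gene, the mean ratio was higher than in vehicle by 1.21 at 2 h and by 2.85 at 12 h. The ratio of Prkci to Prkcz was 5.18 and 4.94 in vehicle, 4.93 and 4.31 at 2 h and 7.79 and 6.96 at 12 h, a log2 difference from vehicle of -0.13 at 2 h and 0.54 at 12 h. The ratio of Pard6a to Pard6b was 0.476 and 0.766 in vehicle, 0.712 and 0.850 at 2 h and 0.265 and 0.416 at 12 h. Pard6b had more counts than Pard6a in all 6 libraries, and the log2 ratio differed from vehicle by 0.37 at 2 h and by -0.86 at 12 h. With each library left out in turn, this difference was 0.022 to 0.71 at 2 h and -1.21 to -0.52 at 12 h. For Llgl1 to Llgl2 it was 0.97 to 1.45 at 2 h and 2.78 to 2.92 at 12 h. For Prkci to Prkcz it was -0.23 to -0.037 at 2 h and 0.46 to 0.62 at 12 h. With 2 libraries against 2, a two-sided exact permutation test cannot give a p below 0.333. It gave 0.333 for each of these differences except that of Pard6a to Pard6b at 2 h, where the groups overlapped and it gave 0.667.

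**Figure D3:**
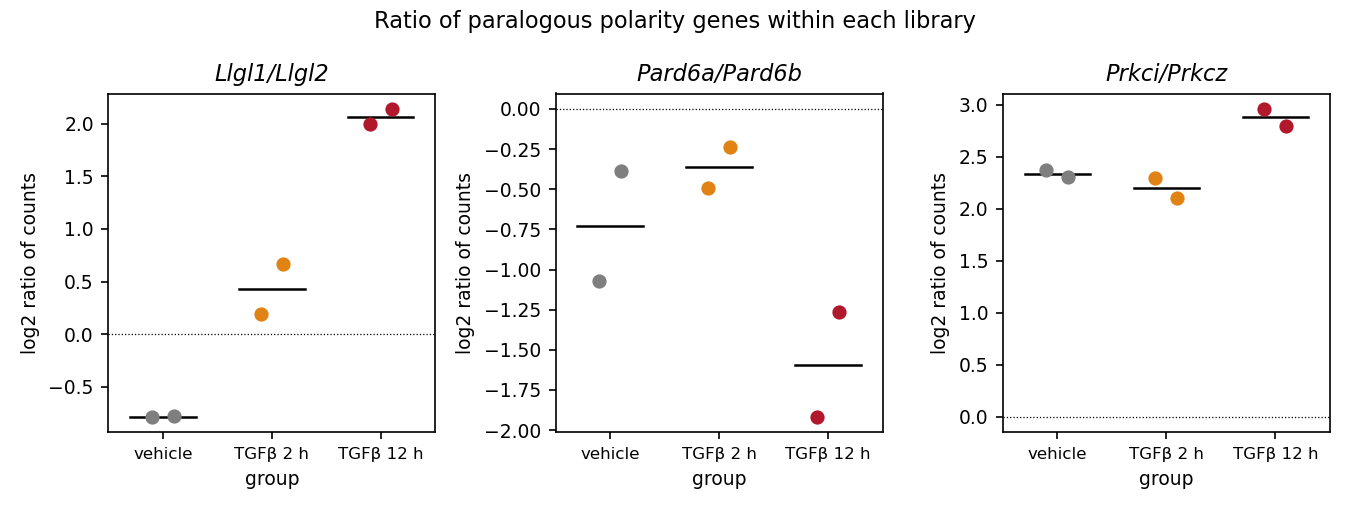
Log2 ratio of the counts of paralogous polarity genes within each library (vertical axes) in vehicle, 2 h and 12 h of TGFβ, with points for libraries, horizontal lines for means of 2 and dotted lines at equal counts. The ratio of Llgl1 to Llgl2 goes from -0.79 and -0.78 in vehicle to 1.99 and 2.14 at 12 h.

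To compare genes with each other, the level was divided by the exon length of each gene in kb (GENCODE vM1 on mm9, from 1.43 kb for Pard6a to 14.5 kb for Pard3). The length is the union of the exons of all annotated transcripts of a gene. On this scale, CPM per kb, Llgl2 was the highest of the 10 genes in vehicle at 31.1 ± 1.504 (SD, n = 2), followed by Prkci at 28.2 ± 1.31 and Scrib at 22.7 ± 2.67. Llgl1 (17.7 ± 0.894), Dlg1 (16.0 ± 0.111) and Crb3 (14.7 ± 0.176) came next. Pard6a (9.60 ± 2.33), Pard3 (7.15 ± 0.401), Pard6b (6.60 ± 0.611) and Prkcz (4.69 ± 0.0595) were lowest. Among neighbours in this order, only Pard3 and Pard6b overlapped between libraries. Prkci was thus the main atypical protein kinase C transcript per length, and the Par6 transcripts were closer to each other.

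At 2 h Scrib (30.1 ± 5.04 CPM per kb), Llgl1 (30.0 ± 4.86) and Prkci (26.4 ± 2.22) led with overlapping libraries, ahead of Llgl2 at 22.6 ± 1.55. At 12 h Llgl1 was the highest at 39.5 ± 3.58 CPM per kb, Prkci (27.6 ± 0.841) and Scrib (27.2 ± 1.75) overlapped behind it, and Llgl2 was at 9.59 ± 0.182, below Dlg1 at 17.7 ± 0.137. Crb3, in the middle of the order in vehicle, was at 3.63 ± 0.304 at 12 h, next to Prkcz, the lowest gene at 3.17 ± 0.156. The counted gene models were UCSC known genes, so these lengths stand in for those that were counted.

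**Figure D4:**
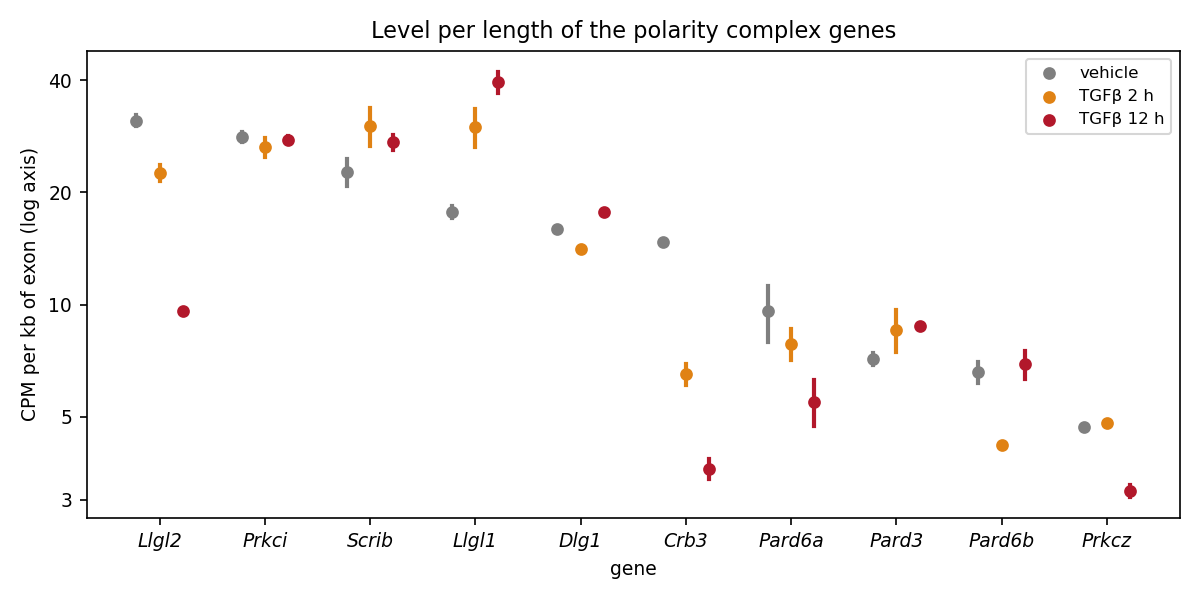
Level per length of each polarity complex gene in CPM per kb of exon (log axis), with genes ordered by their mean in vehicle. Points are means of 2 libraries and bars run from the lower to the higher of the 2. Llgl2 goes from 31.1 in vehicle to 9.59 at 12 h, Crb3 from 14.7 to 3.63 and Llgl1 from 17.7 to 39.5.

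Other genes of the polarity network were read from a list of 53 partners, relatives and regulators, of which 41 passed the filter. After 2 h of TGFβ the test called 9 of them higher and 2 lower, and after 12 h it called 11 higher and 10 lower. The background at 2 h is 9.91% higher, 5.25% lower and 15.2% in either direction. At 12 h it is 21.8% higher, 21.5% lower and 43.3% in either direction, so the share at 12 h is near the background. When each library was left out in turn, 4 to 7 of them were called higher and 0 to 4 lower at 2 h, and 7 to 11 higher and 5 to 14 lower at 12 h, so the counts below hold for the fit of all 6 libraries. Their median log2FC was 0.06 at both times, against -0.01 at 2 h and 0.02 at 12 h over all genes. In all, 18 of the 41 were called at neither time, with a log2FC between -0.46 and 0.34 at 2 h and between -0.78 and 0.64 at 12 h. None of the 6 tested Crumbs complex genes other than Crb3, which include the scaffold genes Mpp5 (Pals1) and Patj, was called at either time. Mpp5 was at a mean of 85.7 CPM in vehicle and 109 at 12 h (log2FC 0.34, adjusted p = 0.180), and Patj was at 56.8 and 45.0 CPM (log2FC -0.33, adjusted p = 0.102). With the replicate block both were called at 12 h, Mpp5 higher (adjusted p = 0.0153) and Patj lower (0.0373). Patj was also called lower with total counts (adjusted p = 0.0286), with vehicle and 12 h alone in the fit (0.0243) and without replicate 1 (0.0247) or replicate 2 (0.0293) of 2 h.

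Of 10 tested partners and inhibitors of Crumbs, 5 were called at 2 h, with 3 of them higher. At 12 h 8 were called, with 5 of them lower. The share called over all genes was 15.2% and 43.3%. Of these genes Ezr, Epb41l5, Frmd4a, Frmd4b and Nf2 encode FERM proteins, which tie membrane proteins to actin, and they did not move together. Ezr, the gene of ezrin in the microvillus, went from a mean of 828 CPM in vehicle to 695 at 2 h (log2FC -0.25, adjusted p = 0.261) and 270 at 12 h (log2FC -1.62, adjusted p = 0.000236). Epb41l5, whose protein binds Crumbs, went from 154 to 99.0 CPM at 2 h and 55.1 at 12 h (log2FC -0.63, adjusted p = 0.0156, and -1.48, adjusted p = 0.000208). Frmd4b went from 40.9 to 18.1 and 13.6 CPM (log2FC -1.17, adjusted p = 0.0107, and -1.59, adjusted p = 0.00111). Its relative Frmd4a went the other way, from 32.5 to 53.9 and 56.5 CPM (log2FC 0.73, adjusted p = 0.00453, and 0.80, adjusted p = 0.000972), and Nf2, the gene of merlin, was not called (log2FC -0.01 and 0.11, adjusted p = 0.960 and 0.459). The 2 h calls of Epb41l5 and Frmd4b were lost without either vehicle library (adjusted p = 0.0738 and 0.0879 for Epb41l5, 0.0558 and 0.0574 for Frmd4b), and that of Epb41l5 also without either 12 h library (0.0559 and 0.0562). With vehicle and 2 h alone in the fit, the 2 h call of Epb41l5 was lost as well (adjusted p = 0.0578). Amotl1, an angiomotin gene whose family binds Pals1 and Patj, was also higher, going from 24.2 to 48.8 and 159.6 CPM (log2FC 1.01, adjusted p = 0.00171, and 2.72, adjusted p = 3.2e-05). The angiomotin genes did not move together. At 12 h Amotl2 was higher (201 CPM in vehicle, 344 at 12 h, log2FC 0.78, adjusted p = 0.00869) and Amot lower (55.9 CPM in vehicle, 30.1 at 12 h, log2FC -0.89, adjusted p = 0.0207), and neither was called at 2 h (log2FC 0.07 and 0.14). Without replicate 2 of 12 h both calls were lost (adjusted p = 0.0757 for Amotl2 and 0.107 for Amot), and that of Amot also without replicate 1 of vehicle (0.0949).

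Of 6 tested genes of the Par complex and its GTPases, 2 were called at 2 h, both higher. At 12 h 4 were called, the same pair higher and the others lower, against 15.2% and 43.3% called over all genes. All 4 encode exchange factors, which switch small GTPases on. Arhgef18, whose protein acts at apical junctions, went from a mean of 125 CPM in vehicle to 441 at 2 h and 537 at 12 h (log2FC 1.82, adjusted p = 0.000262, and 2.10, adjusted p = 4.9e-05). Tiam2, an exchange factor of Rac, went from 49.5 to 146 and 147 CPM (log2FC 1.57 at both times, adjusted p = 0.000576 and 0.000147). Ect2, an exchange factor best known from cytokinesis that also binds the Par complex, was at 128 CPM in vehicle, 92.7 at 2 h (log2FC -0.46, adjusted p = 0.369) and 9.81 at 12 h (log2FC -3.70, adjusted p = 0.000369), with a wide spread in vehicle (1510 and 2619 counts). Tiam1, the paralog of Tiam2, was at 7.89 CPM in vehicle, 8.77 at 2 h (log2FC 0.15, adjusted p = 0.669) and 5.03 at 12 h (log2FC -0.65, adjusted p = 0.0471). The call of Tiam1 was lost with limma-voom (adjusted p = 0.0567), with DESeq2 (0.0603), with no filter (0.0511), without replicate 2 of vehicle (0.265) and without replicate 1 (0.170) or replicate 2 (0.153) of 12 h. Cdc42 and Rac1, the GTPases themselves, were not called, with a log2FC of 0.03 and 0.13 at 2 h and 0.17 and 0.06 at 12 h.

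In the group of Scribble relatives, 5 were tested, with 1 called at 2 h (higher) and 1 in each direction at 12 h. The background in either direction is 15.2% for the earlier time and 43.3% for the later one, so these shares lie near it. Lrrc1, a close relative of Scrib, went from a mean of 136 CPM in vehicle to 95.1 at 2 h (log2FC -0.52, adjusted p = 0.0784, not called) and 63.8 at 12 h (log2FC -1.10, adjusted p = 0.00217). Its change at 2 h was called with the replicate block (adjusted p = 0.0236), with DESeq2 (0.0269), with total counts (0.0345) and without replicate 1 of 2 h (0.0303). In the group of Par-1 kinases, the Lkb1 kinase with its partners and 14-3-3 proteins, 14 were tested, with 3 called at 2 h, all higher, and 7 at 12 h, of which 5 were higher, shares near the 15.2% and 43.3% called over all genes. Cab39, the scaffold of the Lkb1 complex, was the 1 gene of this group called with an absolute log2FC above 1, at 505 CPM in vehicle and 244 at 12 h (log2FC -1.05, adjusted p = 0.00935), a call lost without replicate 2 of 12 h (adjusted p = 0.0867). At 2 h it was at 403 CPM and was called with the replicate block alone (log2FC -0.34, adjusted p = 0.0325, against 0.372 without the block).

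**Figure D5:**
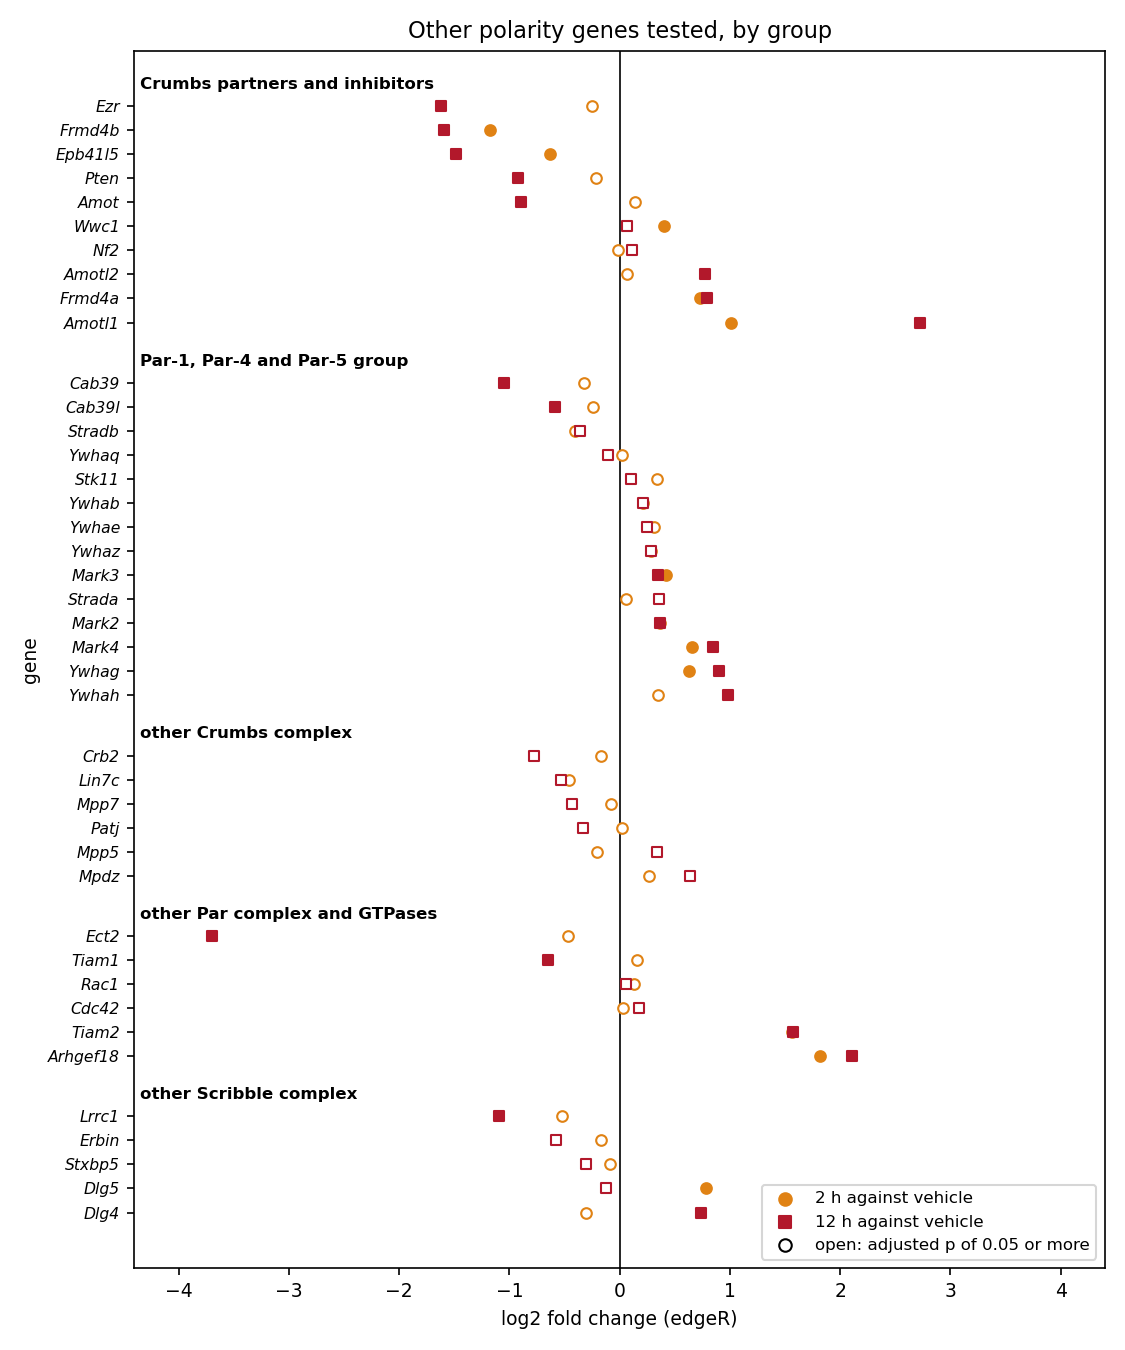
Log2FC against vehicle at 2 h (circles) and 12 h (squares) of the 41 other polarity genes tested, in 5 groups and ordered by the change at 12 h within a group. Filled symbols are called and open symbols are not. Ect2 (-3.70) and Amotl1 (2.72) lie furthest from 0 at 12 h, and no gene of the group of other Crumbs complex genes is called.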

How the data were processed

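The series holds strand-specific total RNA-seq of 3 groups with 2 biological replicates. Per the labels and the methods of the study, the authors aligned the reads to mm9 with subjunc, kept unique alignments, removed duplicates with SAMtools 0.1.19 and counted exonic reads of UCSC known genes by strand with featureCounts. Without molecular identifiers, removal of duplicates can lower the counts of the most abundant genes. The deposited values are raw counts, and all columns of the table belong to the 6 libraries. Groups and replicate numbers came from the sample titles.

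Tests were run in R 4.3.3 by edgeR 4.0.16 (quasi-likelihood test, two-sided, TMM factors, 1 fit of the 3 groups, at least 2 CPM in at least 2 libraries, Benjamini-Hochberg adjustment within each comparison). The SE is the absolute log2FC divided by the square root of the F statistic. The test in the study was limma-voom, used here as an alternative (limma 3.58.1), as was DESeq2 1.42.0. Further alternatives were DESeq2 size factors, total counts, no filter, at least 10 counts in every library, the replicate block, only the 2 groups compared, each library left out, and 2 counts added in the ratios. The procedure was tested on simulated data. Positions, lengths and promoters were read with Python 3.11.15, and figures drawn with matplotlib 3.10.9.

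All 10 genes were named, and of the other polarity genes those called with an absolute log2FC above 1 against vehicle. Mpp5, Patj, Cdc42, Rac1, Tiam1, Frmd4a, Nf2, Amot and Amotl2 were named after their values were seen. The genes, lists and motifs were chosen with earlier results of these data known. Replicate libraries differed by a median of 0.152 on the log2 scale in vehicle, by 0.220 in the 2 h group and by 0.134 in the 12 h group, in each case beyond sampling noise. Libraries with the same replicate number deviated together: the correlation of their deviations from the group means was 0.708 for vehicle and 2 h, 0.263 for vehicle and 12 h and 0.392 for 2 h and 12 h. The labels do not say what the number marks. Chromatin data of the study were not used here.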

Additional observations from a re-analysis of the deposited data

Results flagged for a closer look

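For 5 of the 10 polarity genes the change from vehicle differed between 2 h and 12 h, as tested by the direct comparison of 12 h with 2 h in edgeR, in which 34.1% of all genes were called. The time of TGFβ and the time without serum and insulin cannot be told apart in it. When each library was left out in turn, 0 to 2 of the 10 genes were called higher and 2 to 3 lower. Crb3 was lower at 12 h than at 2 h by a log2FC of -0.84 (adjusted p = 0.00863) and Llgl2 by -1.23 (adjusted p = 0.000515), in each case with all 12 h libraries below all 2 h libraries. Prkcz had the same direction, with -0.61 (adjusted p = 0.00841) after no call at 2 h. Pard6b was higher at 12 h than at 2 h by 0.72 (adjusted p = 0.0118), and its 12 h libraries overlapped with vehicle. Dlg1 was higher by 0.33 (adjusted p = 0.0313) without a call against vehicle at either time, and this call was lost without any single library other than replicate 1 of 2 h.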

How the results depend on the processing

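Of 420 log2FC values of the 10 genes under alternative settings, 375 kept their direction and side of the threshold, 28 lost and 9 gained a call, and 8 changed sign. The changes of Crb3, Llgl1 and Llgl2 at 12 h and of Crb3 at 2 h kept their calls under all alternatives. With the replicate block 2 of the 10 genes were called higher at 2 h (1 without the block) and 3 at 12 h (1 without), by the calls of Scrib and Pard3 given above, and together with Pard6a and Llgl1 between 2 h and 12 h no other call of the 10 genes changed. Over all genes the block raised the calls from 1680 to 3222 at 2 h and from 4799 to 6127 at 12 h. Of the other polarity genes, those called lower went from 2 to 5 at 2 h and from 10 to 16 at 12 h. Those called higher at 2 h went from 9 to 12. With only the 2 groups compared in the fit, 1 of the 10 genes was called lower at 2 h (3 with all groups), 1 was called higher at 12 h against 2 h (2 with all groups), 882 of all genes were called at 2 h, and of the other polarity genes 4 were called higher and 1 lower at 2 h. Total counts without TMM factors moved the median log2FC of all genes from -0.01 to -0.12 at 2 h and from 0.02 to -0.11 at 12 h and gave -0.072 for Prkcz at 2 h, -0.058 for Pard6b at 12 h and -0.012 for Tiam2 at 12 h against 2 h, none of them called. They also gave -0.092 for Patj, -0.086 for Cdc42 and -0.040 for Amotl2 at 2 h and -0.070 for Rac1 and -0.022 for Nf2 at 12 h, likewise not called. At 2 h they called 975 of all genes lower (582 with TMM factors) and 5 of the other polarity genes higher (9 with TMM factors). With at least 10 counts in every library Tiam2 was at -0.0013 at 12 h against 2 h.

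When each library was left out in turn, the genes of the 10 called higher were 0 to 2 at 2 h, 1 to 2 at 12 h and 0 to 2 at 12 h against 2 h, and those called lower 1 to 2, 2 to 4 and 2 to 3. With 1 library left in a group, that library is assumed to vary like the others. Values that crossed 0, none of them called, ranged from -0.074 to 0.18 for Pard6b and from -0.077 to 0.018 for Prkci at 12 h, from -0.85 to 0.058 for Ect2 at 2 h, and at 12 h against 2 h from -0.15 to 0.23 for Pard3, -0.017 to 0.16 for Prkci, -0.31 to 0.034 for Scrib and -0.097 to 0.092 for Tiam2. So did, at 2 h, Mpp5 (-0.48 to 0.0061), Patj (-0.20 to 0.20), Cdc42 (-0.22 to 0.22), Rac1 (-0.027 to 0.25), Tiam1 (-0.058 to 0.40), Nf2 (-0.044 to 0.018), Amot (-0.082 to 0.32) and Amotl2 (-0.12 to 0.28), at 12 h, Rac1 (-0.024 to 0.12) and Nf2 (-0.012 to 0.20), and at 12 h against 2 h, Cdc42 (-0.050 to 0.37) and Rac1 (-0.19 to 0.069). The cause of these changes was not tested. Calls over all genes ranged from 618 to 2196 at 2 h, from 2822 to 5410 at 12 h and from 1605 to 3816 at 12 h against 2 h (4799 and 3775 with all libraries for the last 2). At the depth of these libraries Pard6a, with 155 to 252 counts, and Crb3, with 104 to 393, are the least precise of the 10 genes.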
